A study of Mus musculus with 90 samples.

Results

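The difference between p16 high and p16 low tissue was set side by side in the hippocampus and in the choroid plexus of the same mice. The measurements were areas of interest (AOIs) of brain sections profiled with GeoMx, which frees the barcodes of RNA-bound probes with light, area by area, and counts them by sequencing. Mice were included where the choroid plexus (CP) had both a p16 high and a p16 low AOI, which held for 7 of 10 mice. Within each mouse the p16 high minus p16 low difference was averaged over the hippocampal fields CA1 and CA3, and the same difference in CP was subtracted from it. The result, 1 value per mouse and gene, is called the difference of differences below. A value above 0 means that the gene stood higher in p16 high relative to p16 low AOIs in the hippocampus than it did in the CP. In all, 40 of 90 AOIs entered, 26 from the hippocampus (12 from CA1 and 14 from CA3) and 14 from the CP.

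p16 is the protein product of Cdkn2a that blocks cyclin-dependent kinases of the G1 phase and is widely used as a marker of senescent cells, which stop dividing and can secrete inflammatory factors. The pyramidal neurons of CA1 and CA3 are non-dividing excitatory cells of the memory circuit. The choroid plexus is a secretory epithelium that makes cerebrospinal fluid, over a core of blood vessels, fibroblasts and macrophages. The same p16 label therefore marks areas of very different tissue.

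The 7 mice were 4 animals exposed to chronic social stress (CSS; mice 1152, 1157, 1162 and 1170) and 3 control mice (ctrl; mice 1151, 1168 and 1175). Mouse 1170 contributed CA3 alone to the hippocampus, and the other 6 contributed both fields, so that each mouse had 4 or 6 AOIs and each label and subregion had 1 AOI per mouse. Strain, sex and age, and the way in which areas were assigned their p16 status, were not given in the sources used here. CSS mouse 1163 and ctrl mouse 1182 had no p16 low CP AOI, and CSS mouse 1169 had no CP AOI among the samples used here. An AOI holds many cells, so fewer cells of a type and less RNA per cell cannot be told apart.

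The marker genes separated the tissues as labelled. The summed signal of 26 choroid plexus epithelium genes ran from 63025 to 127454 in CP AOIs, against 1346 to 4287 in hippocampal AOIs. The summed signal of 17 general neuronal genes ran from 5021 to 20259 in hippocampal AOIs, against 347 to 539 in CP AOIs. CA1 markers summed to 1988 to 5033 in CA1 and 297 to 510 in CA3, and CA3 markers to 1030 to 3679 in CA3 and 603 to 886 in CA1.

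A few AOIs stood apart. Mouse 1170 had the shallowest AOIs, 240980 to 377620 counts, while the AOIs of the other mice ran from 530518 to 1421580. The CA3 AOIs of mouse 1175 had the lowest CA3 markers, 1346 (p16 high) and 1030 (p16 low), where the other CA3 AOIs had at least 1674. In mouse 1151 the p16 high CA3 AOI had a neuronal marker sum of 20259, the highest of all, against 11470 in its p16 low CA3 AOI. Where leaving out 1 mouse moved a main value by over 1.5 times, the value without it is given too. The plot of tissue markers shows the separation of the subregions and these AOIs.

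**Figure D1:**
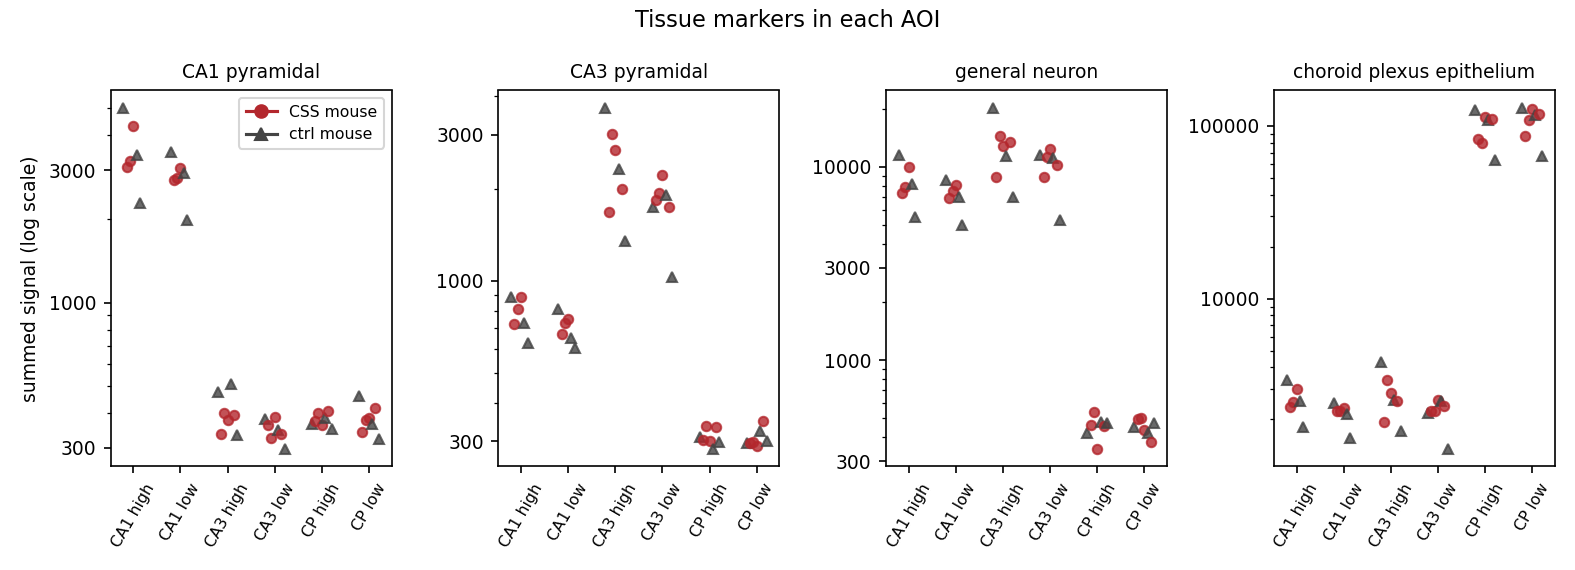
Summed signal of 4 marker lists (log axes) in each of the 40 AOIs, by subregion and p16 label; each symbol is 1 AOI, red circles CSS mice and grey triangles ctrl mice. Choroid plexus epithelium genes reach 63025 to 127454 in CP and at most 4287 in the hippocampus, and the lowest CA3 marker sums in CA3, 1346 and 1030, belong to mouse 1175.

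Cdkn2a, on chromosome 4 (89274473 to 89294619, mm10), was low in every area. Its signal, a probe count scaled so that each AOI has the same gene median of 22.067, was 12.6, 22.1 and 27.1 (lowest, median and highest) in 13 p16 high hippocampal AOIs and 16.8, 23.2 and 30.9 in 13 p16 low hippocampal AOIs. In the CP it was 16.2, 22.1 and 28.0 in 7 p16 high AOIs and 7.36, 22.1 and 24.8 in 7 p16 low AOIs. The p16 high and p16 low AOIs overlapped in both tissues. Which of the locus's transcripts, p16 or the p19Arf made from another reading frame, the probe binds was not given in the sources used here. These values rest on 2 to 58 counts per AOI, above the negative control probe in 39 of 40 AOIs.

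The p16 difference of Cdkn2a, on the log2(signal + 1) scale used for every difference here, was -0.17 in the hippocampus (above 0 in 3 of 7 mice) and 0.30 in the CP (above 0 in 5 of 7 mice). The difference of differences was -0.47 ± 0.85 (SD, n = 7 mice), with an exact 2-sided sign-flip permutation p = 0.0469. It was below 0 in 6 of 7 mice, so the transcript stood lower in p16 high relative to p16 low AOIs in the hippocampus than in the CP. With limma over all 19962 genes the adjusted p was 0.560 and the 95% interval -1.05 to 0.10. An exact sign-flip p under 0.05 with a value below 0 was found for 2.02% of all genes.

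Mouse 1170 decided the size of this value. It stood at -2.36, while the other 6 mice ran from -0.30 to 0.16, and without it the mean was -0.16 (exact sign-flip p = 0.0938). In its CP the p16 high AOI had 6 Cdkn2a counts and the p16 low AOI 2, a signal ratio of 3.0 with an exact 95% counting interval of 0.536 to 30.4. Its CA3 had 4 counts in the p16 high AOI and 11 in the p16 low AOI, a ratio of 0.519 with an interval of 0.121 to 1.75. Within the CSS mice the mean was -0.75 (0 of 4 above 0), and within the ctrl mice -0.10 (1 of 3 above 0). The plot of Cdkn2a in each AOI shows the crossing lines of the mice.

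**Figure D2:**
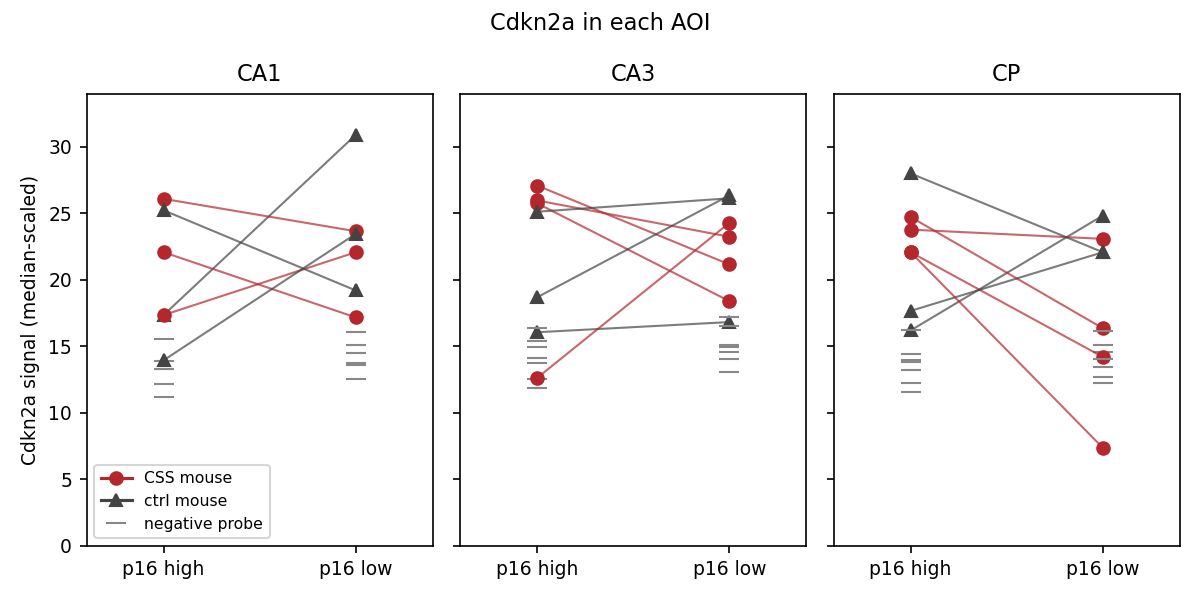
Cdkn2a signal (scaled to a common gene median) in p16 high and p16 low AOIs of CA1, CA3 and CP; each symbol is 1 AOI, lines join the AOIs of a mouse, red circles are CSS and grey triangles ctrl mice, and grey dashes are the negative probe of the same AOIs. Signals run from 7.36 to 30.9 and p16 high and p16 low AOIs overlap in each subregion.

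Cdkn1a, which encodes p21, another inhibitor of cyclin-dependent kinases, is on chromosome 17 (29090979 to 29100722). Its signal was 9.46, 19.5 and 33.1 (lowest, median and highest) in p16 high hippocampal AOIs and 18.9, 27.0 and 43.1 in p16 low hippocampal AOIs. CP values were 26.5, 32.3 and 44.1 in p16 high AOIs and 23.6, 33.1 and 55.2 in p16 low AOIs. The p16 difference was -0.40 in the hippocampus, above 0 in 1 of 7 mice (limma adjusted p = 0.253), and -0.03 in the CP. The difference of differences was -0.37 (SE 0.25, limma adjusted p = 0.619) and did not pass. It was -0.15 without mouse 1151 and -0.57 without mouse 1170.

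No gene passed the test of a difference in p16 difference between hippocampus and CP after correction. Limma with Benjamini-Hochberg adjustment called 0 of 19962 genes (0%) at an adjusted p under 0.05, and the smallest adjusted p was 0.204. An unadjusted p under 0.05 was found for 2084 genes (10.4%), of which 1716 were above 0 (8.6% of all genes) and 368 below (1.84%). That split held for the deposited scaling alone, since quantile normalization gave 495 above and 539 below 0, and scaling to the 75th percentile 542 above and 1124 below. With counts recovered from the signal, edgeR called 0 genes (1651 at an unadjusted p under 0.05), whereas DESeq2 called 124, all above 0 (1355 at an unadjusted p under 0.05). Both of those models took the AOI and not the mouse as the unit, with the mouse as a block.

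The 2 tissues were also tested apart. In the hippocampus 0 genes were called for p16 high against low (smallest limma adjusted p = 0.189), with 2870 (14.4%) at an unadjusted p under 0.05. In the CP 0 genes were called (smallest limma adjusted p = 0.889), with 1046 (5.24%) at an unadjusted p under 0.05. Without mouse 1170 the counts were 186 genes in the hippocampus (175 above 0) and 2 in the CP, and 11 for the difference of differences. Without mouse 1152 they were 21 in the hippocampus, 0 in the CP and 16 for the difference of differences. Leaving out any of the other 5 mice gave 0 in all of these.

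The 10 highest moderated t values of the difference of differences belonged to Chgb, Cntn1, Gpr158, Parp1, Dlgap1, Capzb, Slc25a46, Pebp1, Tpi1 and Dctn3, with limma adjusted p from 0.204 to 0.256. None of them passed, and only their values are given. In each of them the mean p16 difference was above 0 in the hippocampus and below 0 in the CP. All but Pebp1 were above 0 in 7 of 7 mice in the difference of differences, where 3.11% of all genes were. Genes named here and below were picked by t or p over the same 7 mice, so agreement between mice follows in part from that choice.

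Chgb encodes a granin, a protein of the dense-core vesicles of neurons and endocrine cells, and lies on chromosome 2 (132781642 to 132795079). Its signal was 334, 1056 and 2704 (lowest, median and highest) in p16 high hippocampal AOIs, against 249, 779 and 1890 in p16 low ones. CP signals were 9.46, 17.7 and 38.2 in p16 high AOIs, against 18.4, 27.6 and 32.7 in p16 low ones. The groups overlapped in both tissues, and the CP level was near that of the negative probe, which ran from 11.16 to 17.21 over the 40 AOIs. The p16 difference was 0.30 in the hippocampus (5 of 7 mice above 0) and -0.40 in the CP (2 of 7), and the difference of differences was 0.70 (SE 0.13, 0.25 to 1.26 in single mice, limma adjusted p = 0.204).

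Cntn1, a neural adhesion molecule gene on chromosome 15 (92051152 to 92341967), was as bright in the CP as in the hippocampus. It had 161, 233 and 399 in p16 high hippocampal AOIs, against 129, 231 and 314 in p16 low ones. The CP values were 201, 280 and 403 in p16 high AOIs, against 236, 351 and 494 in p16 low ones. The AOI groups overlapped, but within mice the 7 hippocampal differences, -0.03 to 0.69, all lay above the 7 CP differences, -0.94 to -0.18. Their mean gap was 0.61 (SE 0.11, limma adjusted p = 0.204). Such a separation of all 7 hippocampal from all 7 CP differences, hippocampus above, was found for 63 genes (0.316%), and the reverse for 6 (0.0301%).

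Dlgap1, a scaffold gene of the postsynaptic density on chromosome 17 (69969073 to 70821413), had 173, 337 and 744 in p16 high hippocampal AOIs, against 134, 300 and 454 in p16 low ones. Its CP signal was 37.7, 47.8 and 65.3 in p16 high AOIs, against 52.0, 62.2 and 97.9 in p16 low ones. The hippocampal p16 difference was above 0 in 6 of 7 mice and the CP difference in 0 of 7, and within mice they did not overlap. Hippocampus minus CP gave 0.71 (SE 0.14), with mouse 1151 at 1.54 and the others at 0.34 to 0.76. Without mouse 1151 it was 0.57.

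Gpr158, an orphan receptor gene of the brain on chromosome 2 (21367567 to 21830544), had 74.6, 144 and 251 in p16 high hippocampal AOIs, against 71.2, 119 and 183 in p16 low ones. CP signals were 5.30, 12.7 and 15.9 in p16 high AOIs, against 7.36, 20.1 and 23.6 in p16 low ones. It was above the negative probe in 26 of 26 hippocampal but only 7 of 14 CP AOIs, so the CP side of its difference of differences, 0.86 (SE 0.16), lay at background. Parp1, the poly(ADP-ribose) polymerase that responds to DNA breaks, lies on chromosome 1 (180568891 to 180600999) and had 59.4, 139 and 221 in p16 high hippocampal AOIs, against 53.6, 94.9 and 147 in p16 low ones. The CP held 22.9, 33.1 and 42.4 in p16 high AOIs, against 34.3, 40.0 and 58.8 in p16 low ones.

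The Parp1 groups overlapped in both tissues. Its p16 difference was 0.47 in the hippocampus (6 of 7 mice above 0) and -0.35 in the CP (1 of 7), a difference of differences of 0.83 (SE 0.16). By field the mean hippocampal difference of Parp1 was 0.71 ± 0.71 in CA3 (SD, n = 7) and 0.19 ± 0.30 in CA1 (SD, n = 6). Whether the fields differed was not tested.

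The other 5 genes of the top 10 were above the negative probe in all 40 AOIs. Capzb, of the actin capping protein, had a difference of differences of 0.71 (SE 0.14), and Slc25a46, of the outer mitochondrial membrane, of 0.86 (SE 0.17). Pebp1, an inhibitor of Raf kinase, stood at 0.54 (SE 0.11), the glycolytic enzyme gene Tpi1 at 0.52 (SE 0.11) and Dctn3, of the dynactin complex, at 0.55 (SE 0.12). Tpi1 and Dctn3 were above 0 in the hippocampus in 7 of 7 mice, where 4% of all genes were, and for Pebp1 and Slc25a46 the CP difference was above 0 in 0 of 7.

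The 10 lowest moderated t values were those of Ankdd1a, Rasgrp3, Prss27, Gm6958, Deup1, H4c14, Kcnf1, Aurka, Rfx4 and Klf10, with limma adjusted p from 0.269 to 0.286. None passed. Their mean signals ran from 8.45 to 85.3, and their mean p16 difference was above 0 in the CP and, except for Klf10, below 0 in the hippocampus.

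Klf10, a zinc finger transcription factor gene induced by TGF-beta, was the brightest of these in the hippocampus. It had 44.1, 62.5 and 88.3 in p16 high hippocampal AOIs, against 34.8, 69.4 and 90.9 in p16 low ones. Its CP signals were 22.1, 29.4 and 36.5 in p16 high AOIs, against 12.4, 18.4 and 23.7 in p16 low ones. The hippocampal groups covered the same range, and the CP groups overlapped only at their edges. Its p16 difference was 0.02 in the hippocampus and 0.61 in the CP (7 of 7 mice above 0, as for 0.466% of all genes), a difference of differences of -0.58 (SE 0.17).

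Deup1, which acts in making the centrioles of multiciliated cells, had a difference of differences of -1.10 (SE 0.29), -0.36 in the hippocampus and 0.73 in the CP. The mean signal of p16 high hippocampal AOIs was 14.2, against 18.0 in p16 low ones, and that of p16 high CP AOIs 22.9, against 13.0 in p16 low ones. The negative probe ran from 11.16 to 17.21, so all but the p16 high CP mean lay near background. Aurka, a kinase of mitosis, stood at -1.19 (SE 0.34) with a mean signal of at most 14.5 in any of the 4 conditions, and only 6 of 26 hippocampal and 3 of 14 CP AOIs were above the negative probe. Ankdd1a, Rasgrp3, Prss27, H4c14 (a histone H4 gene), Kcnf1 (a potassium channel subunit) and Rfx4 (a transcription factor of the RFX family) stood between -1.16 and -0.82, and Gm6958, a predicted gene, at -0.86.

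**Figure D3:**
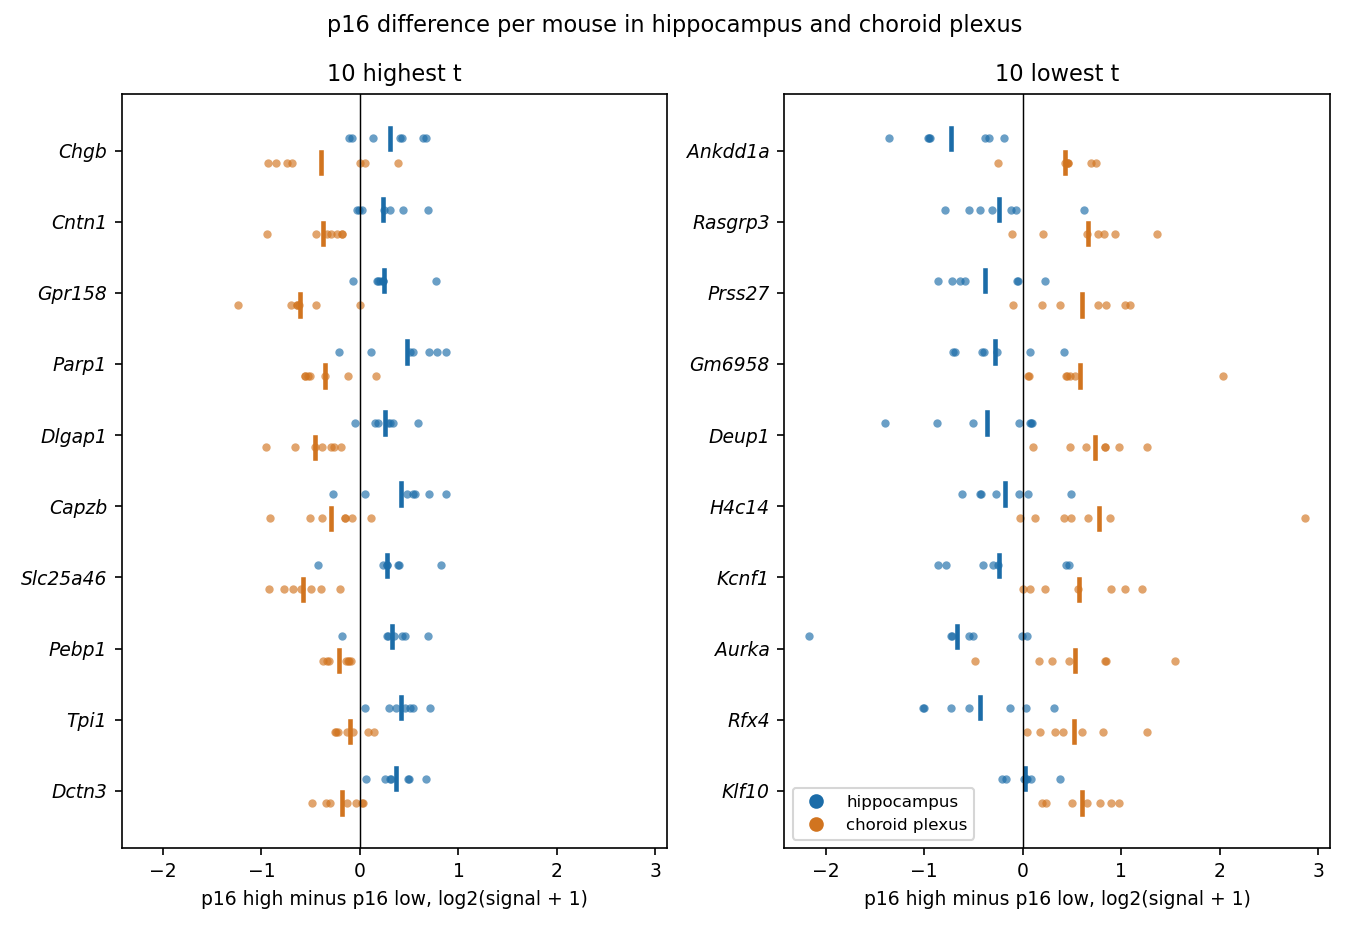
p16 high minus p16 low difference, log2(signal + 1), in hippocampus (blue, upper row of each gene) and choroid plexus (orange, lower row), for the 10 genes of highest (left) and lowest (right) moderated t of the difference of differences; each point is 1 of 7 mice and vertical bars are means. The hippocampal mean lies above 0 and the CP mean below 0 for the 10 genes on the left, and for Cntn1, Dlgap1 and Dctn3 the points of the tissues do not overlap.

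With the deposited scaling, how bright a gene was went with its difference of differences. Quartile medians under other scalings are not given here. Genes were put in quartiles of their mean signal over the 40 AOIs. The median difference of differences was -0.07 in the dimmest quartile, -0.04 in the next, 0.09 in the third and 0.22 in the brightest, where 86.6% of genes were above 0, against 59.5% of all genes. In the brightest quartile the hippocampal median was 0.18 and the CP median -0.06.

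By mouse the median of the brightest quartile was -0.01, 0.23, 0.31 and 0.17 in CSS mice 1152, 1157, 1162 and 1170, and 0.46, 0.18 and 0.22 in ctrl mice 1151, 1168 and 1175. Mouse 1152 was the only 1 of the 7 below 0, and mouse 1151 the highest. The plot by signal level shows the medians of each mouse, which in the CP stayed between -0.16 and 0.02 in every quartile.

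The margin of the genes over background moved under the same contrast. The log2 ratio of the gene median to the negative probe was higher in p16 high than in p16 low AOIs by 0.105 ± 0.048 in the hippocampus (SD, 7 of 7 mice, exact sign-flip p = 0.0156, the smallest that 7 mice allow). In the CP it was higher by 0.041 ± 0.031 (6 of 7 mice, exact sign-flip p = 0.0312). The difference of differences was 0.063 ± 0.048 (SD, n = 7 mice, exact sign-flip p = 0.0312), above 0 in 6 of 7 mice. Mouse 1157 stood at -0.010 and mouse 1162, the highest, at 0.151. The part of this margin in the gene results was not tested. Log2 total counts gave -0.07 ± 0.22 (exact sign-flip p = 0.406).

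**Figure D4:**
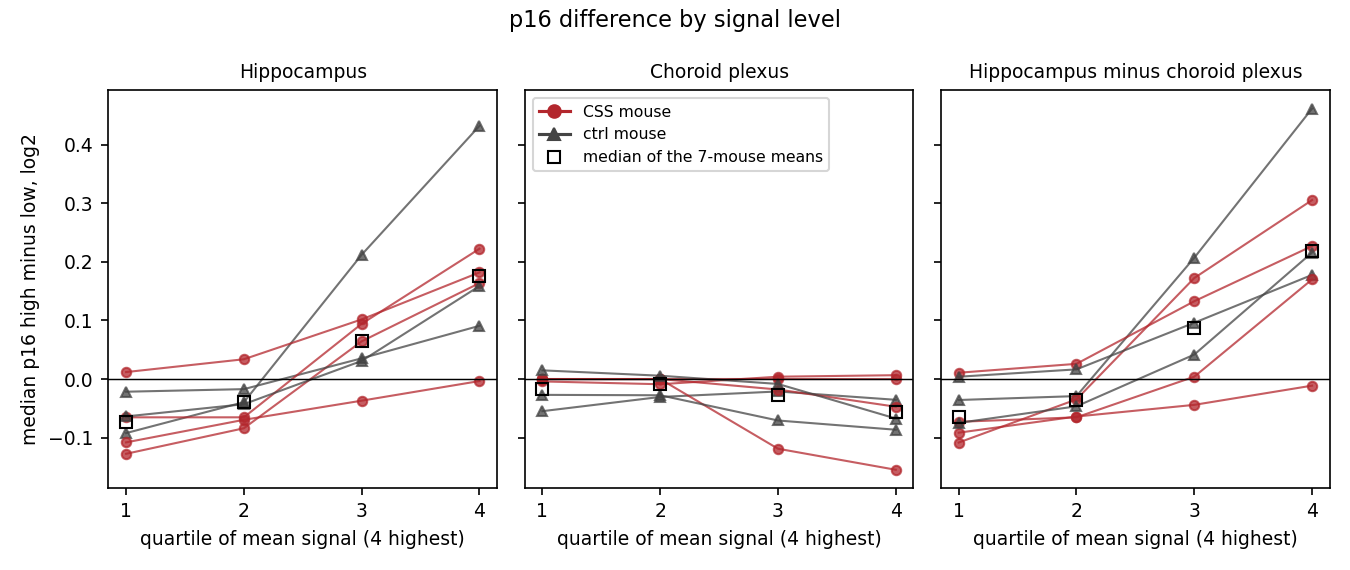
Median p16 high minus p16 low difference (log2) of the genes in each quartile of mean signal, in hippocampus, in choroid plexus, and hippocampus minus choroid plexus; lines are mice, red circles CSS and grey triangles ctrl, and open squares are medians over genes of the mean of 7 mice. With the deposited scaling the open squares reach 0.18 in hippocampus, -0.06 in choroid plexus and 0.22 for their difference in the brightest quartile.

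Scaling mattered for direction. The median difference of differences over all genes was 0.07 with the deposited scaling, 0.00 with quantile normalization and -0.07 with scaling to the 75th percentile. For most lists the median is therefore also set against the median of all genes under each scaling. That measure takes no account of brightness, and the brightest quartile had a median of 0.22 as deposited. All 57 oxidative phosphorylation, 64 ribosomal protein and 17 general neuronal genes lay in that quartile. So did 27 of 28 postsynaptic, 14 of 16 excitatory, 22 of 25 presynaptic, 24 of 29 lysosomal and 21 of 25 heat shock genes. No member of the 27 gene lists was called after correction over all genes. Counts of members above 0 as deposited are read against 59.5% of all genes and, for bright lists, against 86.6% of the brightest quartile. Counts at an unadjusted limma p under 0.05 above 0 are read against 1716 (8.6%), 495 and 542 of 19962 genes. Those are the deposited, quantile and 75th percentile scalings in turn. Among the 9981 genes brighter than the median gene, 1633 had such a p in either direction as deposited.

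Genes of energy production all stood above 0 with the deposited scaling, and 38 of 57 did with quantile normalization. Of the 57 measured genes of oxidative phosphorylation 40 had an unadjusted p under 0.05 with the deposited scaling, 2 with quantile normalization and 15 with scaling to the 75th percentile. The deposited scaling gave a median of 0.32, against 0.22 for the brightest quartile. The list median was 0.25, 0.02 and 0.24 above all genes under the deposited, quantile and 75th percentile scalings. In the hippocampus 57 of 57 had a p16 difference above 0 (58.4% of all genes), but 27 of 57 with quantile normalization, where the median was -0.00. In the CP 3 of 57 were above 0 (43.4% of all genes), and 19 of 57 with quantile normalization. Examples were Ndufa3 of complex I at 0.58 (SE 0.12), Ndufb7, also of complex I, at 0.48 (SE 0.13), Cox6b1 of cytochrome c oxidase at 0.56 (SE 0.14) and Atp5pb of ATP synthase at 0.46 (SE 0.11).

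Ndufa3 had 104, 191 and 283 in p16 high hippocampal AOIs, against 85.6, 137 and 175 in p16 low ones, and in the CP 184, 225 and 305 in p16 high AOIs, against 196, 297 and 338 in p16 low ones. The AOI groups overlapped, while its 7 hippocampal and 7 CP differences did not. Its limma adjusted p was 0.256.

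Genes of the ribosome, protein folding and the lysosome were counted in the same way. Of 64 ribosomal protein genes 63 were above 0, with a median of 0.21. With quantile normalization 10 of 64 were and the median turned to -0.08. Relative to all genes the median was 0.13, -0.08 and 0.13 under the deposited, quantile and 75th percentile scalings. The deposited median was not above the 0.22 of the brightest quartile. Ribosomal protein genes have close copies in the genome, which probes may not tell apart. Rplp1 stood at 0.37 (SE 0.11) and Rpl28 at 0.38 (SE 0.12). Of 25 heat shock and unfolded protein genes 23 were above 0 and 14 had an unadjusted p under 0.05, with a median of 0.27, whereas with quantile normalization 15 were above 0 and 0 had such a p by limma, and with scaling to the 75th percentile 7 had. That median was 0.20, 0.04 and 0.19 above all genes under the deposited, quantile and 75th percentile scalings. Hsp90aa1, a major chaperone, stood at 0.37 (SE 0.10) and Canx, the calnexin of the endoplasmic reticulum, at 0.38 (SE 0.11), both in 7 of 7 mice.

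Of 29 lysosomal genes 21 were above 0 and 13 had an unadjusted p under 0.05 above 0, with a median of 0.18. With quantile normalization 16 were above 0 and 0 had such a p by limma. With scaling to the 75th percentile 16 were above 0 and 4 had such a p. The median was 0.11, 0.01 and 0.10 above all genes under the deposited, quantile and 75th percentile scalings. The deposited median lay below the 0.22 of the brightest quartile. Psap, the precursor of the saposins that activate glycolipid breakdown, stood at 0.43 (SE 0.10), Gaa, which breaks down glycogen, at 0.49 (SE 0.11) and Npc2, a cholesterol carrier, at 0.48 (SE 0.15). Npc2 was brighter in the CP, with mean signals of 38.5 and 33.9 in p16 high and p16 low hippocampal AOIs and 320 and 381 in p16 high and p16 low CP AOIs. The lysosomal median was 0.12 in the hippocampus and -0.11 in the CP, and with quantile normalization -0.02 in both.

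Neuronal and synaptic genes were counted next. Of 28 postsynaptic density genes 24 were above 0 and 12 had an unadjusted p under 0.05 above 0, with a median of 0.28. With quantile normalization 14 of 28 were above 0 and 2 had such a p, and with scaling to the 75th percentile 5 had. Relative to all genes the postsynaptic median was 0.21, -0.00 and 0.20 under the deposited, quantile and 75th percentile scalings. Of 16 excitatory neuron genes 13 were above 0, with a median of 0.34, which was 0.27, 0.05 and 0.26 above all genes under the deposited, quantile and 75th percentile scalings. Of 25 presynaptic genes 22 and of 17 general neuronal genes 12 were above 0, with medians of 0.22 and 0.21. As deposited the brightest quartile of all genes also had 0.22. Both list medians turned to -0.04 with quantile normalization. Set against all genes, the presynaptic median was 0.15, -0.04 and 0.14 under the same scalings in turn. The general neuronal median was 0.14, -0.04 and 0.13 on that measure. Nrgn, a calmodulin-binding postsynaptic protein gene, stood at 0.48 (SE 0.12), the NMDA receptor subunit gene Grin2a at 0.51 (SE 0.14), and the synaptic vesicle gene Syp at 0.52 (SE 0.13).

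With the deposited scaling the general, excitatory, presynaptic and postsynaptic lists had larger medians in the hippocampus than in the CP. The CP side of the neuronal lists was dim. The general neuronal sum was 347 to 539 in CP AOIs, against 5021 to 20259 in hippocampal ones, and the excitatory sum 284 to 409 in the CP. There 1 of 17 general neuronal and 0 of 16 excitatory genes had a mean at or below the negative probe. The inhibitory list had -0.01 in the hippocampus and 0.02 in the CP. With quantile normalization the general neuronal list had 0.00 in the hippocampus and 0.04 in the CP, and the postsynaptic list 0.04 and 0.01. With scaling to the 75th percentile the general neuronal list had 0.12 in the hippocampus and 0.00 in the CP, and the postsynaptic list 0.12 and -0.02. As deposited, the median p16 difference of the postsynaptic list was 0.24 in the hippocampus and -0.04 in the CP, and that of the excitatory list 0.28 in the hippocampus and -0.07 in the CP. Syp had mean signals of 1476 and 1126 in p16 high and p16 low hippocampal AOIs, and of 28.4 and 31.3 in p16 high and p16 low CP AOIs. Of 18 inhibitory neuron genes 6 were above 0, with a median of -0.15, below all genes under each scaling. The neuropeptide gene Npy stood at -0.64 (SE 0.26), but it was above the negative probe in only 4 of 14 CP AOIs, so its CP side lay at background.

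Markers of the fields varied. Of 12 CA1 markers 10 were above 0, with a median of 0.22 that was 0.15, 0.07 and 0.14 above all genes under the deposited, quantile and 75th percentile scalings. Of 14 CA3 markers 8 were above 0, with a median of 0.11. It was -0.03 with quantile normalization and with scaling to the 75th percentile. Relative to all genes it was 0.04, -0.03 and 0.03 under the deposited, quantile and 75th percentile scalings. Rgs14, a regulator of G protein signalling, stood at 0.95 (SE 0.33) with single mice from -0.89 to 3.30, and without mouse 1151 at 0.56. Its mean p16 difference was 1.44 ± 2.38 in CA3 (SD, n = 7) and 0.08 ± 0.21 in CA1 (SD, n = 6). Which cells of the CA3 AOIs carried the Rgs14 signal was not tested. Bok, a Bcl-2 family gene, stood at -0.38 (SE 0.15), below 0 in 7 of 7 mice, where 0.676% of all genes were.

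Genes of the choroid plexus itself were looked at in its own p16 difference. Of 26 epithelial genes 2 had a CP difference above 0, with a median of -0.12, against 43.4% of all genes, but with quantile normalization 11 of 26 did. Of 27 channels, pumps and transporters 3 did, with a median of -0.12, and 11 with quantile normalization. Kl, the gene of klotho, had a mean signal of 996 in p16 high CP AOIs, against 1156 in p16 low ones (log2 difference -0.22, below 0 in 7 of 7 mice, where 1.13% of all genes were). Slc4a10, a sodium bicarbonate transporter gene, differed by 0.23 in the hippocampus (7 of 7 mice above 0) and by -0.08 in the CP (0 of 7), a difference of differences of 0.31 (SE 0.11, limma adjusted p = 0.357). Atp1b1, of the sodium pump, was brighter in the hippocampus and stood at 0.49 (SE 0.12).

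Markers of other cells of the tissues varied. Of 20 astrocyte genes 3 were above 0 in the difference of differences, with a median of -0.10, and of 16 mural cell and fibroblast genes 4, with a median of -0.22, both below all genes under each scaling. The summed astrocyte signal was higher in CP AOIs, 3192 to 6268, than in hippocampal ones, 1003 to 2790. Which cells carried it in the CP was not tested. In the hippocampus the astrocyte median was -0.14, with 5 of 20 genes above 0. There 4, 11 and 13 astrocyte genes had an unadjusted limma p under 0.05 below 0 under the deposited, quantile and 75th percentile scalings. Of all 19962 genes 542 (2.72%), 583 and 1768 did. Gja1, a gap junction gene of astrocytes, stood at -0.36 (SE 0.18) and the collagen gene Col1a1 at -0.66 (SE 0.29). Without mouse 1162 Col1a1 was -0.42. The microglial list (11 of 20 above 0), the oligodendrocyte list (10 of 20) and the endothelial list (10 of 17) stayed within 0.06 of the median of all genes under each scaling. Bsg, an endothelial and epithelial membrane protein gene that was bright in the CP, stood at 0.43 (SE 0.11).

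The summed erythroid signal, blood in the section included, ran from 107 to 1321 in p16 high and from 118 to 2508 in p16 low CP AOIs. In hippocampal AOIs it ran from 374 to 1434 in p16 high and from 328 to 1026 in p16 low ones. The summed astrocyte signal overlapped between p16 high and p16 low AOIs in CA1, CA3 and CP, and so did the mural cell sum. The part of these cell types in the gene results was not tested.

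The senescence genes showed no common direction. Of 20 senescence and cell cycle inhibitor genes 11 were above 0, with a median of 0.08. It was -0.07 with quantile normalization and -0.06 with scaling to the 75th percentile. Relative to all genes it was 0.01, -0.07 and 0.01 under the deposited, quantile and 75th percentile scalings. Cdkn2d, which encodes the inhibitor p19INK4d, stood at 0.45 (SE 0.19), the proliferation marker Mki67 at -0.76 (SE 0.32) and Gpnmb, a membrane glycoprotein, at -0.68 (SE 0.31). Without mouse 1170 Gpnmb was -0.34. Of 36 genes of the senescence secretory phenotype 15 were above 0, with a median of -0.07, below all genes under each scaling. Of 25 p53 target and DNA damage genes 12 were above 0, with a median of -0.01.

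Secretory phenotype genes of opposite sign included Igfbp7 at -0.55 (SE 0.18, below 0 in 7 of 7 mice) and Igfbp5 at -0.76 (SE 0.27), both insulin-like growth factor binding proteins. Igfbp7 was a CP gene, with mean signals of 19.7 and 22.9 in p16 high and p16 low hippocampal AOIs and 467 and 419 in p16 high and p16 low CP AOIs. The protease gene Ctsb stood at 0.39 (SE 0.13) and the protease inhibitor gene Timp2 at 0.35 (SE 0.15), above 0 in 7 of 7 mice. Timp2 had 1.07 in mouse 1157 and at most 0.34 in the others, and without that mouse its mean was 0.23.

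Of 18 glucocorticoid response genes 12 were above 0, with a median of 0.07, the same as for all genes. With scaling to the 75th percentile it was -0.07, again the same as for all genes. Nr3c2, the mineralocorticoid receptor that binds corticosterone in hippocampal neurons, had 92.1, 236 and 378 in p16 high hippocampal AOIs, against 74.8, 156 and 255 in p16 low ones. In the CP it had 20.5, 23.8 and 35.3 in p16 high AOIs, against 21.6, 29.4 and 44.1 in p16 low ones. The groups overlapped in both tissues, and the difference of differences was 0.60 (SE 0.19, 6 of 7 mice above 0, limma adjusted p = 0.298).

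Fkbp5, a co-chaperone of the glucocorticoid receptor that glucocorticoids induce, stood at 0.53 (SE 0.25), from 0.56 in the hippocampus and 0.04 in the CP, and without mouse 1151 at 0.32. Sgk1, a kinase gene induced by the same hormones, stood at 0.34 (SE 0.14). Of 25 interferon and antigen presentation genes 9 were above 0, with a median of -0.10, below all genes under each scaling. Of 22 immediate early genes 13 were above 0, with a median of 0.04, likewise below all genes under each scaling. It was -0.04 with quantile normalization and -0.11 with scaling to the 75th percentile.

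**Figure D5:**
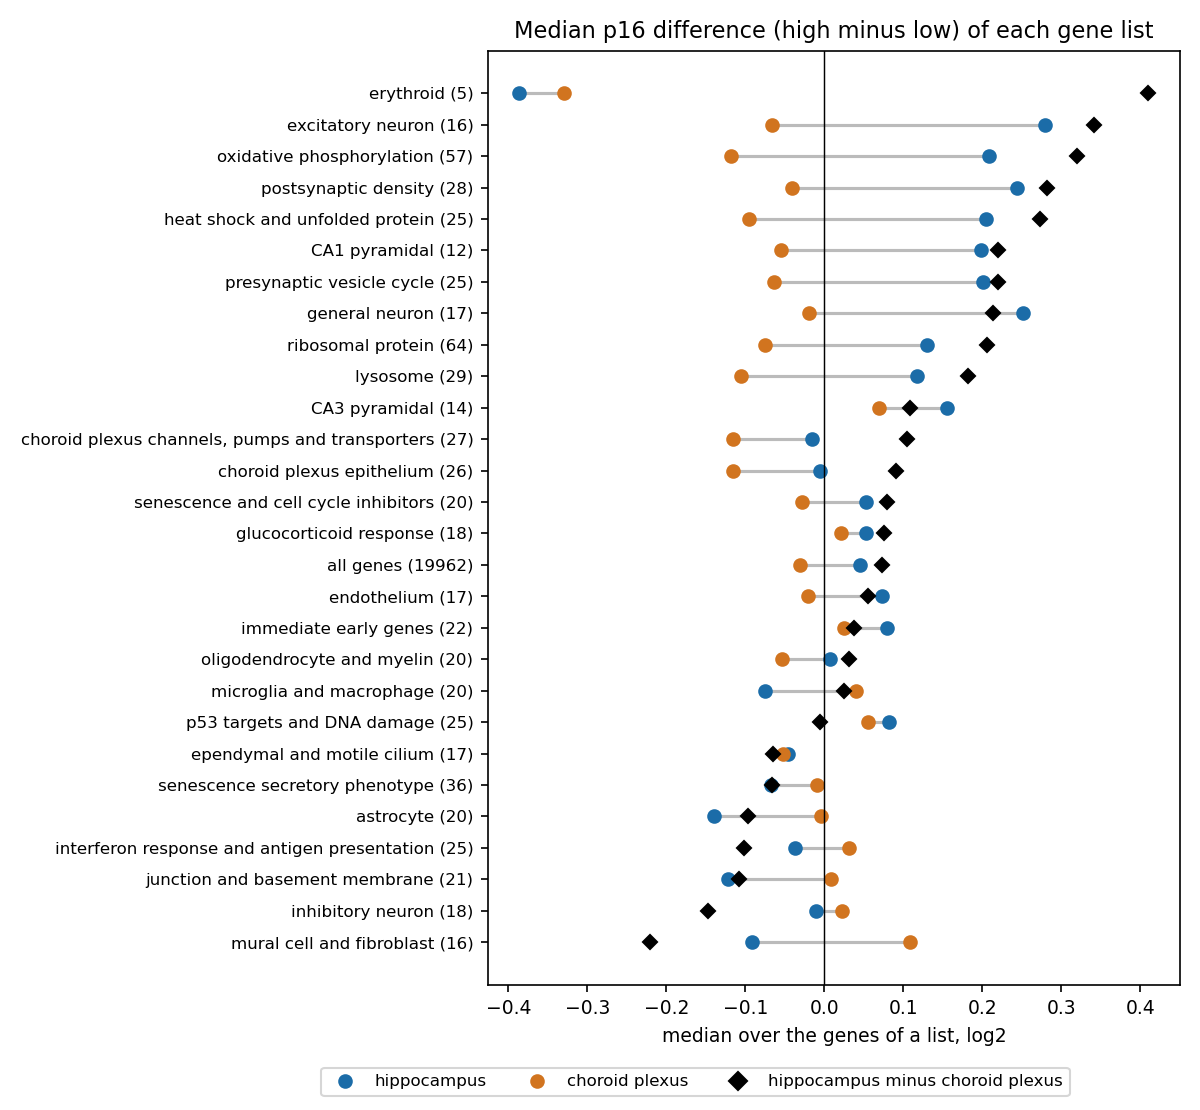
Median over the genes of each list (number of genes in brackets) of the p16 high minus p16 low difference in hippocampus (blue) and choroid plexus (orange) and of the difference of differences (black diamonds), log2, deposited scaling, means of 7 mice. The diamond is the median of gene-wise differences and need not equal the gap between the circles, as in the erythroid list of 5 genes; oxidative phosphorylation stands at 0.32 and all genes at 0.07.

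Next, the difference of differences was compared between stress groups. Limma called 0 genes between CSS and ctrl mice (0%), with 639 at an unadjusted p under 0.05 (3.2%) and a smallest adjusted p of 0.999. Fitted apart, the 4 CSS mice gave 0 called genes and the 3 ctrl mice 12, all above 0, of which 0 were among the 20 genes above. The median of the oxidative phosphorylation list was 0.25 over the CSS mice and 0.43 over the ctrl mice, and that of the postsynaptic list 0.27 over the CSS mice and 0.30 over the ctrl mice. These medians were not tested.

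The motor and somatosensory cortex of the same 7 mice, 28 AOIs, gave the same kind of comparison. It shares its 14 CP AOIs with the hippocampal one, so the values stand side by side and are not independent. In the cortex minus CP comparison limma called 0 genes (0%), with 1225 (6.14%) at an unadjusted p under 0.05 and a smallest adjusted p of 0.519. Cdkn2a had -0.47 (SE 0.27) for hippocampus minus CP and -0.47 (SE 0.22) for cortex minus CP. Dlgap1 had 0.71 for hippocampus minus CP and 0.63 for cortex minus CP, Chgb 0.70 and 0.50, Parp1 0.83 and 0.40, and Tpi1 0.52 and 0.17. The oxidative phosphorylation median was 0.32 for hippocampus minus CP and 0.20 for cortex minus CP, and the postsynaptic median 0.28 and 0.11. The difference between hippocampus and cortex was not tested.

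Within the hippocampus, CA1 alone set against the CP (6 mice) gave 27 called genes, 22 above and 5 below 0, and CA3 alone (7 mice) gave 0. Of the 20 genes above, 6 were among the 27, Chgb, Cntn1, Gpr158, Dlgap1, Tpi1 and Gm6958. CA1 alone leaves out the shallow mouse 1170, and whether CA1 and CA3 differed was not tested. The median p16 difference of oxidative phosphorylation genes was 0.14 in CA1 and 0.26 in CA3, against -0.12 in the CP.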

How the data were processed

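GeoMx whole transcriptome profiles of formalin-fixed, paraffin-embedded mouse brain sections were used, per the labels' protocols. As its values show, the deposited signal had been brought by the authors to the same gene median in each AOI. Per the submitters' processing notes the build was mm10, while read processing was not given in the sources used here. Of 19962 gene names 19846 matched RefSeq (assembly GRCm38.p6, the same build), which gave coordinates. Whole counts were recovered from the signal (at least 99.985% of values per AOI came out whole within a tolerance of 0.01, and 3 genes did not). Totals ran from 240980 to 1421580 counts per AOI, with a median count per gene of 6 to 49, and 20.6% of values did not exceed the negative probe.

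Per mouse, differences of log2(signal + 1) were taken as stated and tested against 0 over the 7 mice with limma 3.58.1 in R 4.3.3 (lmFit and eBayes with the prior variance following mean signal, 2-sided, Benjamini-Hochberg over all genes, called at 0.05). The scale understates the changes of dim genes. Single values were tested by exact sign flips (128, smallest p 0.0156). edgeR 4.0.16 and DESeq2 1.42.0 were run on the recovered counts, which need not fit those models as raw counts do. The steps were tested on simulated data. For limma the simulated counts held no effect of the mouse, so variation shared within a mouse was not part of that test.

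By rule, the text names Cdkn2a and Cdkn1a, the 10 highest and 10 lowest moderated t (because fewer than 5 genes were called) and up to 4 members of smallest p from each of 27 gene lists. The mice, members, lists and rules were chosen with earlier results of these data known, so list directions are not independent evidence. AOIs of a mouse were paired by the mouse number in the labels. Over 20 pairs (p16 high with p16 low) the deviations from condition means had a median correlation of 0.07, and in 8 pairs it was above 0.1. Alternatives were other pseudocounts, filters, scalings, models, fields, stress groups and leaving out each mouse.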

Additional observations from a re-analysis of the deposited data

Results flagged for a closer look

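The difference of differences of 71 values was examined for a mouse that stood apart from the other 6, and 5 did by Dixon's criterion, where chance marks about 1 in 20. Cdkn2a had -2.36 in mouse 1170, with the next mouse at -0.30. Gpnmb had -2.73 in mouse 1170, with the next at -0.65. Dlgap1 had 1.54 in mouse 1151, with the next at 0.76. Timp2 had 1.07 in mouse 1157, with the next at 0.34. Kcna1, a potassium channel gene, had -0.46 in mouse 1162, with the next at 0.43.

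Exact sign-flip tests of single values between hippocampus and choroid plexus passed for 2, with no correction over genes. The gene median over the negative probe differed more between p16 high and p16 low AOIs in the hippocampus than in the choroid plexus, by log2 0.063 (exact sign-flip p = 0.0312, above 0 in 6 of 7 mice). Cdkn2a had a difference of differences of -0.47 (exact sign-flip p = 0.0469, below 0 in 6 of 7 mice). Such a p with a value below 0 was found for 2.02% of all genes, and limma over all genes called 0. Without mouse 1170 Cdkn2a was at -0.16 (exact sign-flip p = 0.0938).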

How the results depend on the processing

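The count of 0 called genes for hippocampus minus choroid plexus held with log2(signal + 10), the filter on dim genes, scaling to the 75th percentile, edgeR, CA3 alone, CSS mice alone, the stress covariate, no trend in the prior variance (added after seeing the data) and without the CA3 AOIs of mouse 1175 (added likewise). It was 1 with quantile normalization (Gm52800, -0.42, chosen after its value was seen), 27 with CA1 alone, 12 with ctrl mice alone and 124 with DESeq2. Of the 124, 8 were among the 20 genes of highest and lowest t, and all 124 had the sign of the limma value. Leaving out each mouse gave 0 to 16 for hippocampus minus choroid plexus, 0 to 186 for hippocampus, 0 to 2 for choroid plexus and 0 to 1 for cortex minus choroid plexus. Without the CA3 AOIs of mouse 1175 the hippocampus had 1. The stress comparison called 0 genes under every alternative run for it.

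Without the replicate block (4 condition means per mouse, no mouse term) 0 genes were called, with a smallest limma adjusted p of 0.911 and 916 at an unadjusted p under 0.05. All AOIs in 1 model with the mouse as replicate block gave 0 (smallest adjusted p 0.0527), and with mouse by tissue as replicate block, added after seeing the data, 5, among them Dlgap1, Gpr158, Ndufa3 and Gabbr2. Gabbr2 was named after its value was seen.

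Cdkn2a stayed below 0 under each alternative. Leaving out each mouse gave -0.58 to -0.16, with exact sign-flip p from 0.0312 to 0.0938. It passed only without mouse 1151, the only mouse above 0. With 6 mice an exact sign-flip p under 0.05 needs all of them on the same side, so no other omission could pass. Cdkn2a did not pass with CA1 alone (-0.27, p = 0.0625), CA3 alone (-0.38, p = 0.359) or without the CA3 AOIs of mouse 1175 (-0.44, p = 0.0938). The stress groups alone hold too few mice to pass at any value. CSS mice gave -0.75 (p = 0.125, the smallest 4 mice allow) and ctrl mice -0.10 (p = 0.5), all by exact sign-flip permutation tests. The margin over the negative probe ran from 0.049 to 0.076 without each mouse. For the same reason it could pass only without mouse 1157, the only mouse below 0, and did so. Col1a1 turned to 0.00789 with ctrl mice alone. Dim genes limit the rest: 20.6% of values were at or below the negative probe.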
